A study of Mus musculus with 2 samples.

Results

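The mitochondrial ribosomal proteins build the ribosome that works inside mitochondria. Here they were taken as all array genes whose name began with Mrpl or Mrps followed by a digit, which gave 77 genes, 47 of the large subunit and 30 of the small subunit by name. These genes had 100 probes on 127 spots per array, among 39429 probes in all. A gene was measured where at least 1 probe was well above background on at least 1 array, and its brightest such probe represented it. That left 75 members (46 large, 29 small) of 15419 genes measured, and all 75 were well above background on both arrays. Mrpl21 and the pseudogene Mrps36-ps1 were not well above background on either array.

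The series asked how knockdown of G0s2, which encodes an inhibitor of adipose triglyceride lipase, alters gene expression in mouse primary hepatocytes, the liver parenchymal cells isolated for culture. The cells of both groups were plated in 24-well plates with 10% serum in the medium; no source used here gives strain, sex or age. The control group received 50 pmol of control siRNA and the knockdown group 50 pmol of G0s2 siRNA, both with a lipid transfection reagent, and RNA was taken after 24 hours. Each group is 1 array hybridised with Cy3-labelled cRNA, so the differences have no replicate check and compare 2 arrays. The error given after ± is the scanner's own signal error carried to the log2 difference, and it leaves out variation between cultures, extracts and labellings.

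Mitochondrial ribosomes translate a small set of messages of mitochondrial DNA, all for membrane subunits of the respiratory chain and ATP synthase. Their RNA is encoded in mitochondria, whereas every protein is encoded in the nucleus, made in the cytosol and imported. Many of the proteins descend from bacterial ribosomal proteins, and others were added during the evolution of mitochondria. Hepatocytes hold many mitochondria and depend on the respiratory chain for fatty acid oxidation and glucose production.

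Levels are log2 signals minus the 75th percentile of the same array, and a difference is the level with G0s2 siRNA minus the level with control siRNA. That percentile lay at a signal of 418 for the control array and of 728 for the G0s2 siRNA array, and no spot was saturated. The targeted gene, G0s2, had levels of -0.13 (control) and -2.83 (knockdown), a difference of -2.70 ± 0.21. The defining hepatocyte markers were all well above background on both arrays, 9 of 9. Their median difference was 0.41 (-0.16 to 1.04), and the log2 of their summed level was 10.5 and 10.7.

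Most mitochondrial ribosomal protein genes were slightly lower on the G0s2 siRNA array, relative to the 75th percentile. Of the 75 members, 69 (92%) had a difference below 0, beside 55% of all genes measured. The median member stood at -0.37 (quartiles -0.57 and -0.19), and the median of all genes at -0.06 (quartiles -0.37 and 0.28), so the members lay 0.31 below all genes on the log2 scale (-0.31). The direction depended on the centring: on 8 spike-in control probes the members' median was 1.03 and that of all genes 1.34, which left the members the same -0.31 from all genes. With normexp background correction, which models background as part of each spot's signal and here added an offset of 50, the distance shrank to -0.15. The members' median was then -0.31 and that of all genes -0.16. Both arrays ordered the members nearly alike, with a Pearson r of 0.978 and a Spearman rho of 0.979 between their levels; the 75 genes share the same 2 arrays and are not replicates.

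**Figure D1:**
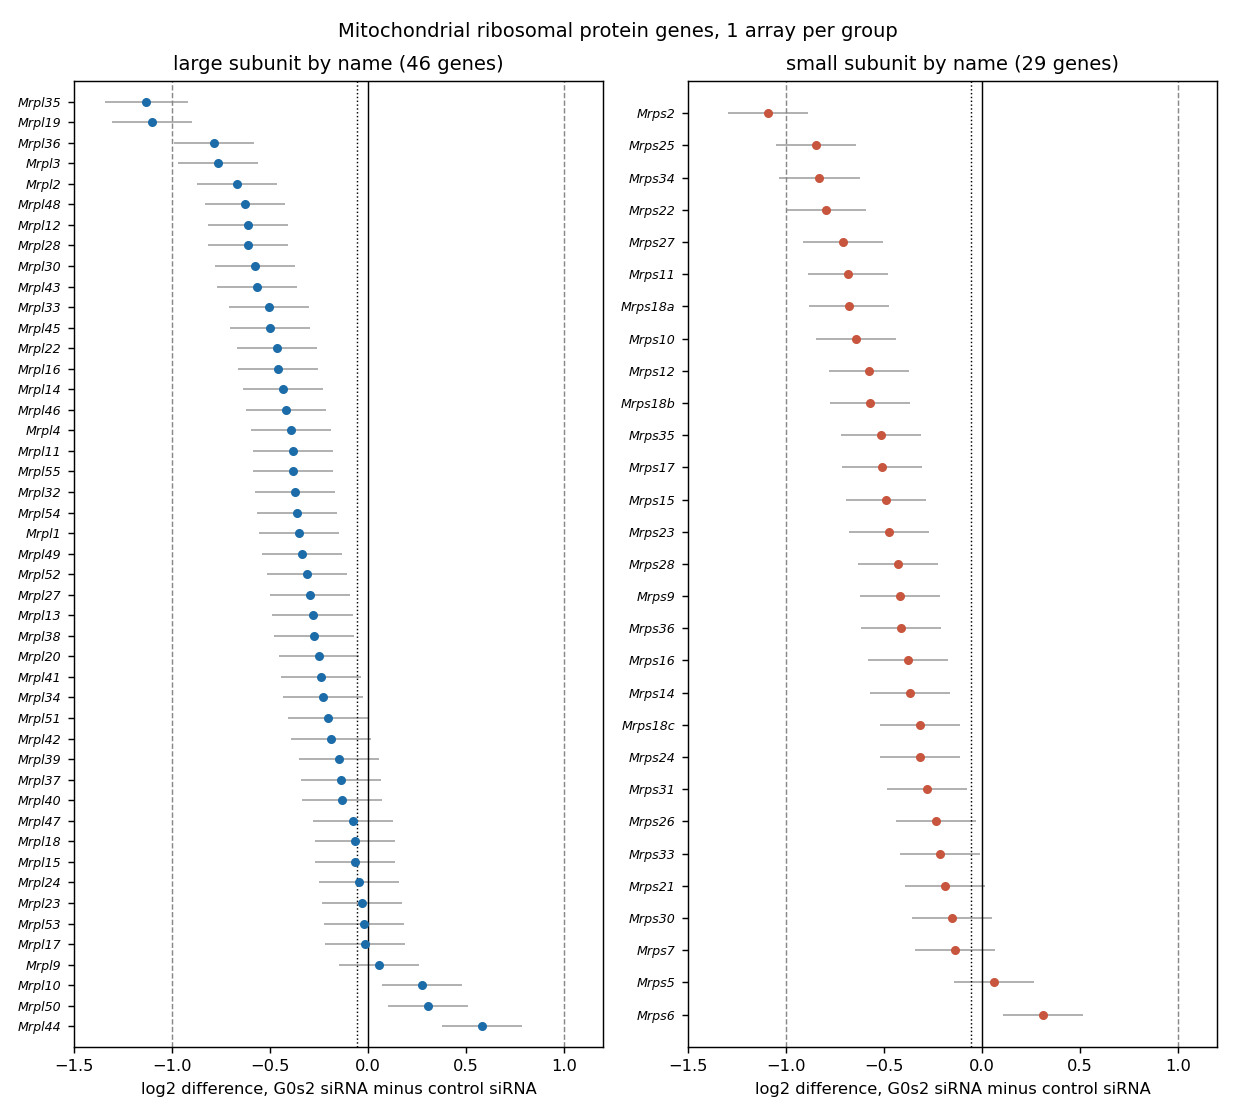
Log2 difference (G0s2 siRNA minus control siRNA, x axis) of each of the 75 members, large subunit left and small subunit right; bars are the scanner error, dashed lines mark 2-fold and the dotted line is the median of all genes (-0.06). Points lie below 0 for 42 of 46 large and 27 of 29 small subunit genes; centred on spike-in controls instead, the members' median was 1.03 and that of all genes 1.34.

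Few single members were far from 0. None of the 75 was at least 2-fold higher, beside 4.81% of all genes. At least 2-fold lower were 3 (4%), beside 5.45% of all genes. At least 1.5-fold lower were 16 (21.3%), beside 14.6%, and at least 3-fold lower 0, beside 1.53%. A difference lower by more than 2 scanner errors was found for 33 members (44%), beside 19.7% of all genes. Mrpl44 alone (1.33%) was higher by more than 2 scanner errors, beside 16.1% of all genes. The differences of the members were also less spread, with an interquartile range of 0.38 beside 0.65 over all genes.

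The 3 members past 2-fold were Mrpl35, Mrpl19 and Mrps2. All had counterparts in bacteria, as did 45 of the 75 members. Mrpl35, a large subunit protein, had a level of -1.54 with control siRNA and -2.67 with G0s2 siRNA, a difference of -1.13 ± 0.21. Its only probe lies on mm9 at chr6:71765277-71765336 on the minus strand, 1349 bases into the transcript. Mrpl19, another large subunit protein, went from 0.43 to -0.67, a difference of -1.10 ± 0.20, at chr6:81911970-81912029 on the minus strand. Mrps2, of the small subunit, stood at 0.75 and -0.34, a difference of -1.09 ± 0.20. These members, with Mrps25 and Mrps34, were the 5 of 75 dimmer on the G0s2 siRNA array before any scaling, although that array was the brighter. No share over all genes is given for this, so the count only describes these members. The processed signal was 144 and then 114 for Mrpl35, 565 and 458 for Mrpl19, and 706 and 576 for Mrps2. Centred on spike-in controls they stood at 0.27, 0.30 and 0.31, each more than 1 log2 unit below the median of all genes. With normexp Mrpl35 stood at -0.85 and Mrps2 at -0.84, short of 2-fold.

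The probes below carry the finding or bear on how far a single probe can be trusted. Each is the 60-base sense sequence of the array probe, 5′ to 3′, with no part in capitals. Mrpl19 and Mrps22 are lower members with 1 probe each; the Mrps2 probe at position 587 and both Mrpl47 probes are ones whose difference departs from another probe of the same gene.
Mrpl19, position 806: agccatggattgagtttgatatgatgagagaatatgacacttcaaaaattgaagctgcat
Mrps22, position 1054: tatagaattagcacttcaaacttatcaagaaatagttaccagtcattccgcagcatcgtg
Mrps2, position 587: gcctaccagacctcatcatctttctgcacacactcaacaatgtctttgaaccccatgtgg
Mrpl47, position 394: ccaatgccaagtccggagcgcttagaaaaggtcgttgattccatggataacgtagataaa
Mrpl47, position 199: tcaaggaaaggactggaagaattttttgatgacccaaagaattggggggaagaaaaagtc
Positions count bases from the start of the transcript, as the scanner files give them. Exon and UTR annotation on mm9 was not used here. The Mrpl47 probe at position 394 spans 1008 bases of the genome, chr3:32629104-32630111, and so crosses a splice junction. The other 4 lie within 1 genomic block, among them the Mrps22 probe at chr9:98489251-98489310 and the Mrps2 probe at chr2:28325206-28325265.

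For 2 of the 22 members with several probes, the probes differed by at least 1 log2 unit. The representing Mrps2 probe, at position 1664 (chr2:28326283-28326342, plus strand), gave -1.09 ± 0.20, whereas the probe at position 587 printed above gave 0.14 ± 0.22. The second Mrps2 probe was dim, at -2.75 (control) and -2.62 (knockdown), though well above background on both. Averaged over both probes the Mrps2 difference was -0.48, so its place past 2-fold rests on 1 probe. Mrpl47, a large subunit protein near the exit of the peptide tunnel, gave -0.07 ± 0.20 at position 394 and 0.10 ± 0.21 at position 199. A Mrpl47 probe at position 1436, built on another transcript, was not well above background on the control array and gave at least 1.84. Mrps25 showed a smaller gap, -0.85 at position 688 and -0.11 at position 5992.

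Agreement was closer for most members with several probes. The median range between probes of a gene was 0.25, 9 of 22 ranges were under the 0.20 of 1 scanner error, and all probes lay below 0 for 16 of 22. Mrps17 gave -0.51 and -0.52, and Mrpl43 gave -0.57 and -0.58. The Mrpl40 probes, which share 52 bases and so are not independent, gave -0.13 and -0.13. Mrpl10, the base of the stalk that recruits translation factors, was above 0 with both probes, at 0.28 and 0.52. Mrpl50, a mitochondria-specific protein, gave 0.31 at position 1910 and -0.05 at position 423.

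In the members with repeat spots, spots of 1 probe agreed more closely than the probes of most genes with several probes. Spots flagged as outliers on either array were left out first, which favours agreement. On 10 spots, Mrpl50 differences ran from 0.27 to 0.33, with an SD between spots of 0.022. On the 8 of 10 spots kept for each, those of Mrps35 ran from -0.62 to -0.45 (SD 0.055) and those of Mrpl34 from -0.33 to -0.15 (SD 0.071). The other 72 members had 1 spot per array. Repeat spots share the labelled sample and give the spread on the slide only.

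The large subunit, which holds the peptidyl transferase centre, had a median of -0.32 over 46 genes (quartiles -0.49 and -0.13). The small subunit, which binds the message and decodes it, had a median of -0.43 over 29 genes (quartiles -0.64 and -0.28). The large subunit median was 0.11 above that of the small subunit. Below 0 lay 42 of 46 large subunit genes and 27 of 29 small subunit genes, and past 2 scanner errors lower lay 16 of 46 and 17 of 29. Across the 11 alternative settings of signal and probe choice, large minus small stayed between 0.06 and 0.14. Some of these could not change it, namely centring on spike-in controls or on the median of probes above background. The same holds for requiring probes above background on both arrays, as all members already were. Genes are not replicates, so the subunits were compared by medians and counts, with no test.

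Mrps18a and Mrps30 carry small subunit names, but the structure of the mammalian mitochondrial ribosome places both in the large subunit. Moving them left the medians at -0.32 for 48 large subunit genes and -0.43 for 27 small subunit genes. Mrps18a went from 4.24 in the control to 3.56 in the knockdown, a difference of -0.68. Its paralogs Mrps18b (5.39 and 4.82, difference -0.57) and Mrps18c (3.33 and 3.01, difference -0.32) stayed in the small subunit. Mrps30 was nearer to 0, at 2.83 and 2.68, a difference of -0.15.

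Among proteins with bacterial counterparts, the median was -0.38 for 29 large subunit genes and -0.40 for 16 small subunit genes, by the structure. Mrpl3 and Mrpl2, whose bacterial counterparts reach toward the peptidyl transferase centre, were among the 5 lowest of the large subunit by name. Mrpl3 was at 2.76 and 1.99 (-0.76), and Mrpl2 at 4.72 and 4.06 (-0.67). Mrpl36, a very small zinc-binding protein, was at 3.45 and 2.67 (-0.78). Mrps12, the counterpart of the bacterial decoding protein altered in streptomycin resistance, gave -0.58. Near 0 in this class were Mrpl17 (3.08 and 3.07, difference -0.01), Mrpl9 (1.81 and 1.87, difference 0.06) and Mrps5 (0.17 and 0.23, difference 0.06). Mrps6 was the highest small subunit gene, at 2.15 and 2.47, a difference of 0.31 ± 0.20. Mrps7 (4.80 and 4.66, difference -0.14) and Mrps21 (5.01 and 4.82, difference -0.19) lay slightly below 0. A second, dimmer Mrps7 probe gave 0.17, so the side of Mrps7 depended on the probe.

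Proteins classed as specific to mitochondrial ribosomes split further by subunit. The class held Mrps18a and Mrps18b, although their paralog Mrps18c was classed with the bacterial counterparts. Here Mrps18a and Mrps30 were counted with the large subunit, by the structure. All 11 others with small subunit names lay below 0, with a median of -0.52. Of the 19 of the large subunit, 17 lay below 0, with a median of -0.24. One of the 11, Mrps36 (-0.42), is named as a ribosomal protein but is now known as a subunit of the 2-oxoglutarate dehydrogenase complex. Without it the median of this group was -0.55 over 10 genes. Over all 28 other small subunit genes by name, with or without bacterial counterparts and with Mrps18a and Mrps30, it was -0.45. Mrps25 was at 4.21 in the control and 3.36 in the knockdown (-0.85). Mrps34, loss of which impairs mitochondrial translation, was at 4.43 and 3.60 (-0.83). Mrps22, a gene mutated in inherited respiratory chain deficiency, was at 2.20 and 1.40 (-0.80), and Mrps27, a pentatricopeptide repeat protein, at 0.70 and -0.01 (-0.71). Relative to all genes, the small subunit group with Mrps36 lay between -0.46 and -0.31 across the settings. The large subunit group lay between -0.18 and 0.04, so its sign depended on the setting.

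Mrpl44 was the highest member and the sole one above 2 scanner errors. This large subunit protein has a ribonuclease III-like fold. It stood at 0.80 in the control and 1.38 in the knockdown, 0.58 ± 0.20 higher. Its probe lies at chr1:79777892-79777951 on the plus strand, 1295 bases into the transcript. The next large subunit genes were Mrpl50 at 1.71 and 2.02 (0.31) and Mrpl10 at 1.97 and 2.24 (0.28), both within 2 scanner errors of 0.

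Neighbouring proteins of the large subunit were set side by side. In the stalk, Mrpl12 was at 5.40 and 4.79 (-0.61), Mrpl11 at 4.70 and 4.31 (-0.38) and Mrpl54 at 4.20 and 3.84 (-0.36). Mrpl53 hardly differed, at 4.20 and 4.18 (-0.02), and Mrpl10 was the 1 of 5 stalk genes above 0. The 8 genes of the central protuberance, where the subunits meet over the transfer RNAs, all lay below 0, from Mrpl48 at -0.63 to Mrpl18 at -0.07. Around the exit of the peptide tunnel the 8 genes had a median of -0.06, the same as all genes, although Mrpl45, which contacts the inner membrane, gave -0.50. Relative to all genes, the stalk stayed below 0 in every setting (-0.32 to -0.20), whereas the central protuberance (-0.25 to 0.03) and the tunnel exit (-0.0028 to 0.25) did not.

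**Figure D2:**
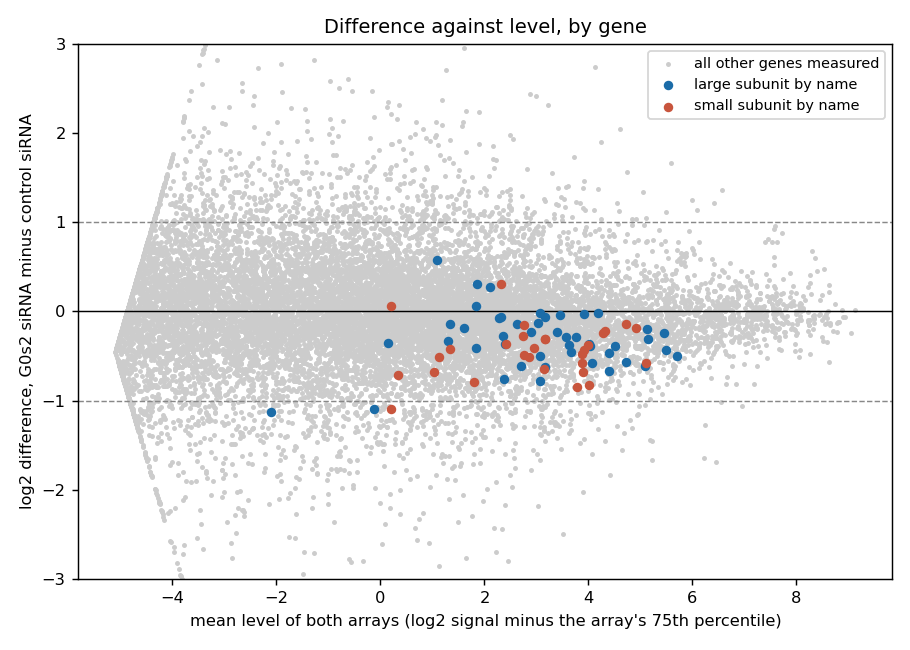
Log2 difference (G0s2 siRNA minus control siRNA, y axis) against the mean level of both arrays (x axis, log2 signal minus the array's 75th percentile) for all genes measured (grey) and the members (coloured by subunit); dashed lines mark 2-fold, and 23 genes lie beyond the axis limit of 3. The coloured points form a band mostly just below 0 at middle and high levels, a side that turns when arrays are centred on spike-in controls (members' median 1.03, all genes 1.34).

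The members had bright probes, so they were compared with genes of like level. With a mean level between 3 and 4, all 22 members lay below 0 with a median of -0.38, beside -0.13 for the 1053 genes measured in that range. Between 4 and 5 it was 13 of 13 with a median of -0.38, beside -0.15 for 654 genes. Above 5 it was 7 of 7 with a median of -0.43, beside -0.07 for 1034 genes. Lower levels held all 6 members above 0. Between 2 and 3 it was 14 of 16 below 0 with a median of -0.28, beside -0.12 for 1412 genes, and between 1 and 2 it was 8 of 11 with a median of -0.33, beside -0.06 for 1749 genes. Between 0 and 1 it was 3 of 4 with a median of -0.53, beside -0.05 for 1739 genes. The 2 members with a mean level under 0, Mrpl35 and Mrpl19, are given above. The 5 members with the highest mean level over both arrays all lay below 0. Mrpl33 was at 5.95 and 5.45 (-0.51), Mrpl14 at 5.70 and 5.27 (-0.43), and Mrpl20 at 5.58 and 5.34 (-0.25). Mrpl52 was at 5.31 and 5.00 (-0.31), and Mrpl51 at 5.22 and 5.02 (-0.20).

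The position of each probe in its transcript was set against the difference. Member probes began 70 to 1910 bases into the transcript, with a median of 681, nearer the start than the 1782 over all genes. Across members, position and difference had a Spearman rho of -0.11 (-0.02 in the large and -0.23 in the small subunit), and over all genes rho was 0.14. All points share the same 2 arrays. With 1 averaged value per gene, or with the probe at the highest position, the rho of the members turned to 0.0578 and 0.0403. Probes at 251 to 500 bases gave a member median of -0.36 with 17 of 17 below 0, beside -0.17 for all 1094 genes there. At 501 to 750 bases it was -0.37 with 21 of 22 below 0, beside -0.15, and at 751 to 1000 bases -0.38 with 18 of 19, beside -0.12. From 1001 to 1500 bases it was -0.39 with 10 of 13, beside -0.10. In these ranges the members were thus nearer to all genes than in the whole set, and still lower. With the trend over position removed from all genes, the members' distance from all genes was -0.21. The 10 probes that cross a splice junction had a median of -0.35, and the 65 within 1 genomic block -0.37.

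**Figure D3:**
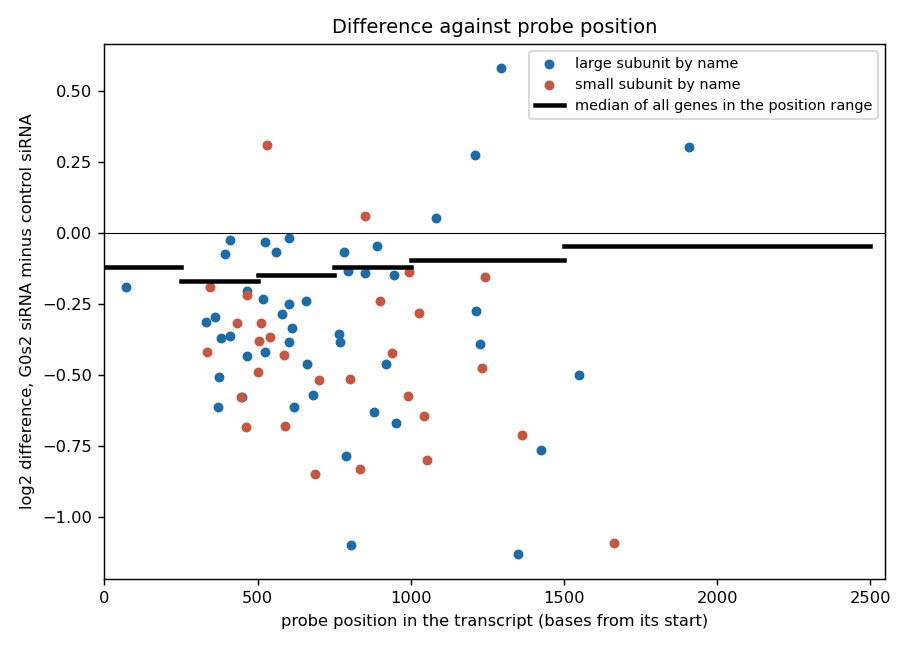
Log2 difference (G0s2 siRNA minus control siRNA, y axis) against the position of the representing probe in bases from the transcript start (x axis) for the 75 members, with horizontal bars for the median of all genes in each position range. Member points lie mostly under the bars, at short and long positions alike; both points and bars move up together with spike-in centring (medians 1.03 and 1.34).

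The wider machinery of mitochondrial gene expression was read from further lists. Of 7 ribosomal proteins known by other symbols, 5 lay below 0, with a median of -0.45. Mrpl58, a peptidyl-tRNA hydrolase built into the large subunit, gave -0.72, Gadd45gip1 gave -0.60, Mrpl57 -0.54, Chchd1 -0.45 and Aurkaip1 -0.33. The small subunit proteins Dap3 and Ptcd3 gave 0.10 and 0.38. The list of mitochondrial aminoacyl-tRNA synthetases, which charge the transfer RNAs, also held the amidotransferase subunits Qrsl1, Gatb and Gatc, which are not synthetases. Of its 19 genes, 15 lay below 0 with a median of -0.25, Qrsl1 (-0.48), Gatb (-0.43) and Gatc (-0.20) among them. The list ran from Sars2 at -0.73 to Wars2 at 1.17, where a second Wars2 probe gave 0.20. Both lists stayed below the median of all genes in every setting, at -0.39 to -0.17 and at -0.25 to -0.13.

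Further lists differed in where their medians lay. Assembly factors of the ribosome had a median of -0.11 over 24 genes, 17 of them below 0. Among these Rcc1l gave -0.83, and Trmt2b, a transfer RNA methyltransferase, gave 2.16, while a second Trmt2b probe gave 0.08. Translation factors had a median of -0.09 over 17 genes, from Slirp, which guards mitochondrial messages, at -0.83 to the elongation factor Gfm1 at 1.10. The list of mitochondrial transcription and RNA processing had a median of -0.08 over 22 genes, from Pnpt1 at -0.84 to Tefm at 0.43. It also held genes of mitochondrial DNA replication, namely Polg (0.16), Polg2 (0.10), Twnk (0.30) and Ssbp1 (-0.26). These 3 medians changed side against all genes between settings. Nuclear regulators of mitochondrial genes had a median of 0.25, with 7 of 9 above 0. Esrra, a nuclear receptor, gave 0.84 and the coactivator Pprc1 -0.91, and this list's median stayed above all genes in every setting (0.21 to 0.49).

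Cytosolic ribosomal proteins, which build the other ribosome of the cell, had a median of -0.04 over 84 genes, with 48 below 0 and 0 past 2-fold, from Rps4l at -0.89 to Rpl29 at 0.96. Their interquartile range was 0.26, and relative to all genes their median was 0.02, with a range of -0.01 to 0.18 across settings. The upper end came with normexp, where the members lay at -0.15, so by that setting the cytosolic list was the farther from all genes. Many cytosolic ribosomal protein genes have processed pseudogene copies, so their probes may read more than 1 gene.

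**Figure D4:**
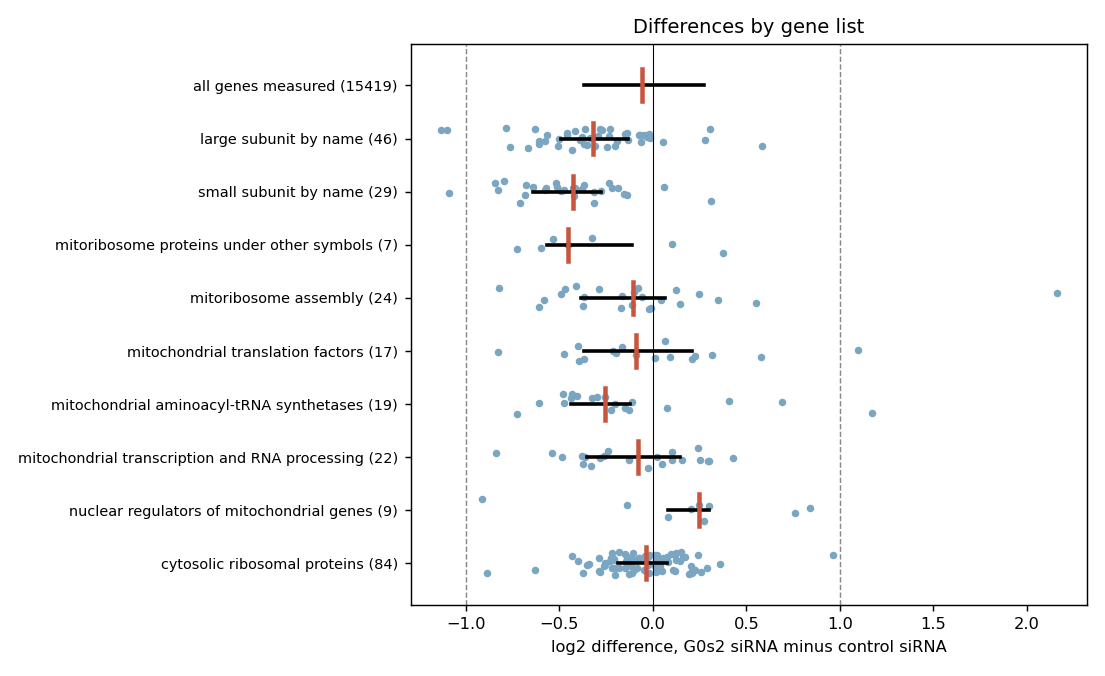
Log2 difference (G0s2 siRNA minus control siRNA, x axis) of each gene (dot) in the members and the other lists, with the number of genes in brackets, red ticks at the medians and black bars over the quartiles; the top row is all 15419 genes and dashed lines mark 2-fold. The medians of the members (-0.32 large, -0.43 small) lie left of all genes (-0.06) and of cytosolic ribosomal proteins (-0.04); all rows shift right together with spike-in centring (all genes 1.34).

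Promoters were read from RefSeq on GRCm38.p6, as windows from 250 bases before to 50 after each transcript start. Of 75 members, 66 had an entry, with 72 promoters in all. Motifs long known from nuclear genes for mitochondrial proteins were searched on both strands. The ETS core CCGGAAG, read by GABP (also called NRF2), stood in 31.9% of member promoters and 8.86% of all 32851 promoters. The YY1 core AAGATGGC stood in 16.7% of member promoters and 2.75% of all. Per gene the gap was narrower: ETS in 34.8% of members and 18.3% of the 11341 measured genes with an entry, and YY1 in 18.2% and 4.78%. The Sp1 box GGGCGG stood in 50% of members and 62.5% of measured genes.

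Windows around the ETS and YY1 cores are shown with 20 flanking bases. They come from the 3 lowest members of each motif whose window lies wholly before the start. Capitals mark the motif, which appears as CTTCCGG or GCCATCTT where it lies on the other strand.
Mrps27, ETS, chr13:99344718-99344764, plus strand: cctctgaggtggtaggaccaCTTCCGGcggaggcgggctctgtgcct
Mrpl48, ETS, chr7:100583138-100583184, minus strand: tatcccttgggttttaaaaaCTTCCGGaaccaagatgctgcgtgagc
Mrpl43, ETS, chr19:45006472-45006518, minus strand: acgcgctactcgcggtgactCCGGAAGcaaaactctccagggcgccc
Mrpl36, YY1, chr13:73330959-73331006, plus strand: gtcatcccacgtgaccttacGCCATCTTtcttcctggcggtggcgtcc
Mrps11, YY1, chr7:78783004-78783051, plus strand: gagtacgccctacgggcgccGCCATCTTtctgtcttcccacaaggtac
Mrps12, YY1, chr7:28741993-28742040, minus strand: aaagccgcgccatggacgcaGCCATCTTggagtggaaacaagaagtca
The 23 members with an ETS core had a median of -0.38 and the 43 without -0.37. The 12 with a YY1 core had a median of -0.47 and the 54 without -0.36. The 3 with an NRF1 site had a median of -0.15 and the 63 without -0.38. The YY1 core began at or after the transcript start in 8 of 12 members, against 5 of 23 for ETS. Yy1 itself differed by -0.14 and Gabpa, a subunit of GABP, by 0.08, both within 2 scanner errors of 0. A match is a description of letters and not a bound site.

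Markers of other liver cells were read beside the members. Cholangiocyte markers were lower, with a median of -0.94 (-1.29 to -0.55) over 5 measured of 6 genes, and the log2 of their summed level was 2.94 and 2.10, with Epcam not well above background on either array. Endothelial markers, 5 measured of 6 with Tek dim on both arrays, went both ways. Their median was 0.77 (-0.51 to 1.01) and their summed level 3.22 and 2.77. The brightest of them, Kdr, gave -0.51, whereas Pecam1, at a control level of -4.20, gave 0.77. Macrophage markers, 6 measured of 7 with Ptprc dim on both, also went both ways. Their median was 0.35 (-0.50 to 1.10) and their summed level 2.63 and 3.17. Stellate cell markers, 4 measured of 7 with Des, Lrat and Pdgfrb dim on both, had a median of 0.40 (-0.10 to 0.88). Their summed level was -1.43 and -1.02. Their part in the differences of the members was not tested, and in RNA of a whole culture fewer cells of a type and less RNA per cell cannot be told apart.

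**Figure D5:**
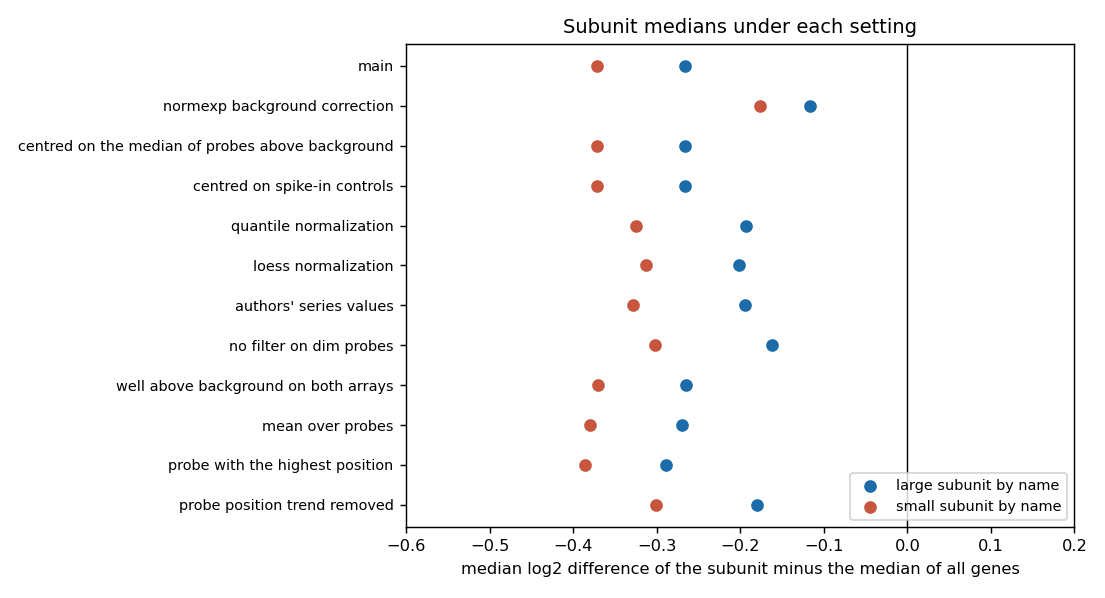
Median log2 difference of the large (blue) and small (red) subunit genes minus the median of all genes (x axis) under the main setting and each alternative (y axis). Both subunits lie left of 0 in every row, the small subunit further left, and normexp background correction brings them closest to 0, with the members together at -0.15. Rows for other centrings repeat the main setting by construction.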

How the data were processed

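RNA of 2 cultures was measured on 1-colour arrays, 1 per group, assigned from the sample labels. Per the file headers, the deposited scanner tables hold spot intensity values, background-corrected by Agilent Feature Extraction 10.7.1.1, on probes placed on mm9, and both arrays lay on 1 slide with 1 scan start. The authors' series table also holds intensity values with a median of 33.1 in both columns; no source used here says how it was normalized, and it served as an alternative.

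Control and outlier spots were dropped, spots of a probe averaged, and log2 processed signals centred on each array's 75th percentile. Each gene took its brightest probe; 8428 of 39424 probes had no current symbol. With 1 array per group no p-value was computed; called means at least 2-fold. The number of arrays limits the precision. Values are named for members past 2-fold, the 5 highest and lowest of each subunit, the 5 brightest, those with discordant probes, the stalk, the Mrps18 paralogs and Mrps30, and list extremes; others were added to describe a group or sequence. Members and lists were chosen with earlier results of these data known. Scripts were tested on simulated data and used Python 3.11.15, numpy 2.4.6, pandas 2.3.3, scipy 1.17.1, statsmodels 0.14.6, matplotlib 3.10.9 and R 4.3.3 with limma 3.58.1.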

Additional observations from a re-analysis of the deposited data

How the results depend on the processing

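Centred on spike-in controls, the medians turned above 0, at 1.03 for all members, 1.08 for the large and 0.97 for the small subunit, with 42 of 75 members at least 2-fold higher, beside 77.1% of all genes, and 0 lower, beside 0.305%. Mrpl19 then stood at 0.30, Mrpl35 at 0.27 and Mrps2 at 0.31. Normexp left 1 member at least 2-fold lower. The probe with the highest position put 1 member, Mrpl47, at least 2-fold higher. The rho with position turned to 0.0578 with the mean over probes and to 0.0403 with the highest position. A 1.5-fold rule gave 16 lower members, beside 14.6% of all genes, and a 3-fold rule 0, beside 1.53%. Across the 11 alternative settings, members minus all genes ranged from -0.33 to -0.15. In these settings 50 to 65 members lay below the median of all genes, of 75 members, or of 77 with no filter on dim probes. Centring on spike-in controls or on the median of probes above background could not change any value taken relative to all genes, for members or other lists. For the 33 named members outside spike-in centring, 316 of 330 values stayed within 1 scanner error and 14 did not. Leaving out saturated spots gave no value, as there were none. No paired analysis was possible because each group has 1 array and no replicate numbers.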

Other observations

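Many genes for mitochondrial proteins start head to head with a neighbour on the opposite strand, and this holds for several members. By RefSeq gene order and starts, 22 of 66 members with a promoter entry had such a partner within 500 bases. The share over all genes is not given here, so this count is a description only. Of these partners, 19 were measured and not themselves members, with a median difference of -0.10, beside -0.33 for their members. Below 0 lay 10 of the 19 partners, beside 55% of all genes measured. The member had a lower difference than its partner in 14 of 19 pairs, among them Mrpl50 (0.31) and Mrps5 (0.06), which lay above 0. Mrpl43 gave -0.57 and its partner Twnk, the mitochondrial DNA helicase, 0.30. Mrpl32 gave -0.37 and its partner Psma2, a proteasome subunit, 0.43. Both sides were low for Mrps12 (-0.58) and Sars2 (-0.73), for Mrpl30 (-0.58) and Mitd1 (-0.72), and for Mrps11 (-0.68) and Mrpl46 (-0.42), which are both members. The 1 partner at least 2-fold higher was Zfp661 at 1.22, beside Mrps5 at 0.06. The other 53 measured members, those with no promoter entry included, had a median of -0.38, with 49 below 0.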
